A study of Rattus norvegicus with 8 samples.

Results

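The RNA of adipose-derived mesenchymal stem cells (ATSC) placed on a rat liver after ischemia-reperfusion injury (IRI) was set against the RNA of ATSC kept in culture. The members are 4 of the 8 arrays in the series, chosen by title: 3 arrays of ATSC on IRI liver and 1 array of ATSC in vitro. The cells were isolated with collagenase from fat under the skin of Sprague-Dawley rats (male) and grown in Dulbecco's modified Eagle's medium with fetal bovine serum, and all arrays were made with Cy3-labelled cRNA from 0.5 µg of total RNA. The labels give no cell dose, contact time or length of ischemia, and they do not say that the IRI replicates came from separate animals, so the p-values measure only the spread between these samples, which may be technical. The culture side is a single array and has no replicate of its own. The 4 arrays lie on 1 slide, whereas 4 further arrays, of ATSC on liver without that injury (non-IRI), lie on the other slide. The non-IRI arrays are used here for values set beside those of IRI. They also enter the estimate of spread behind every SE and p-value.

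Mesenchymal stem cells of fat are fibroblast-like stromal cells that adhere to plastic, make collagen-rich matrix and secrete growth factors and chemokines. Lipid synthesis genes are driven by sterol regulatory element binding proteins. Growth in serum drives actin and muscle genes through serum response factor with its myocardin-family partners. Amino acid shortage or other stress acts through the transcription factor Atf4. After ischemia and reperfusion the liver's resident macrophages (Kupffer cells) are activated and neutrophils enter, and hepatocytes release acute phase proteins. RNA taken from cells that sat on tissue can hold RNA of that tissue, and in such bulk samples fewer cells of a type and less RNA per cell cannot be told apart.

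Levels below are log2 intensities relative to the 75th percentile of each array, so 0 stands for that percentile, and a difference is the mean of the IRI arrays minus the culture value, with its standard error (SE) from the fit. The 3 IRI arrays resembled each other (Spearman's rho of 0.976 to 0.991 over all genes tested) more than they resembled the culture array (0.841 to 0.851). The 75th percentile was 156, 291 and 266 intensity units on the IRI arrays and 177 on the culture array, with 54.4%, 57.5% and 56.4% of spots well above background on IRI and 53.5% in culture. Of 20137 genes tested, 2832 were higher and 3328 were lower on IRI liver at a Benjamini-Hochberg adjusted p under 0.05 from limma. That is 14.1% and 16.5% of the genes. Among the 9231 tested genes with a symbol, 1300 were higher and 1903 lower by the same test. The counts below are read against these numbers, and all members of the lists have a symbol. The lone culture array was assumed in this test to vary like the liver arrays. The median difference of all genes tested was −0.33, so a gene at that value moved like the array as a whole. With arrays scaled to their medians this median became −0.63 and the split 2389 higher against 5947 lower. Without IRI replicate 3, 2272 genes were higher and 1828 lower. Of the usual reference genes, Actb stood at −0.52 ± 0.24 (SE, adjusted p = 0.13) and Gapdh at −0.63 ± 0.29 (adjusted p = 0.13).

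Large rises outnumbered large falls among genes measured on both sides. There, 603 genes were at least 4-fold higher and 392 at least 4-fold lower, and 146 were at least 16-fold higher against 20 that were at least 16-fold lower. A further 1286 of the genes called higher were not well above background in culture, and 329 of those called lower were not well above background on any IRI array. For these only a bound is given, written as "at least", from the higher of the dim side's own signal and the lowest signal well above background on that array. Another 1169 genes were bright in culture but well above background on only some of the IRI arrays. Of these, 183 were called lower and 1 higher, and their differences are given as measured. A gene kept because it was bright on one side alone was picked for leaning to that side. Of such genes, 1286 of 1502 dim in culture and 329 of 777 dim on IRI liver passed the test. The counts over lists therefore describe the samples and do not stand as support.

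**Figure D1:**
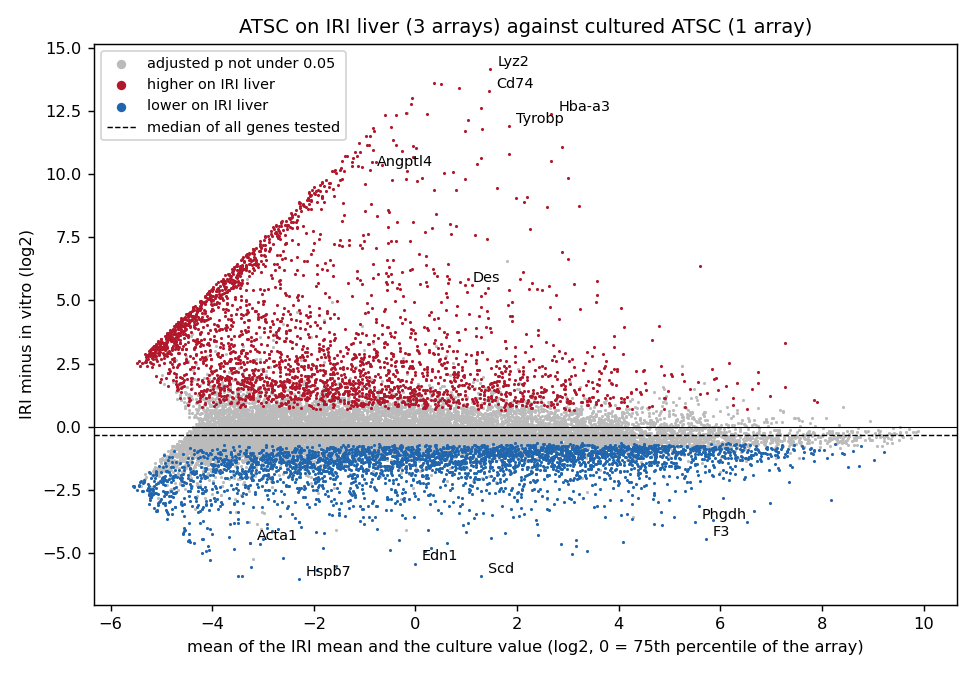
Difference between ATSC on IRI liver (mean of 3 arrays) and cultured ATSC (1 array) on the log2 scale, against the mean of both levels, 1 point per gene. Genes dim on one side are plotted at their measured values. Among genes measured on both sides the differences reach 12.38 at Hba-a3 and −5.93 at Scd, and the dashed line marks the median of all genes at −0.33.

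Genes of cholesterol synthesis fell on IRI liver. Of 22 genes of cholesterol synthesis tested, 20 were lower and 0 higher, with a median difference of −2.85 (−2.80 with dim values at their bound) against −0.33 over all genes. Scd, the desaturase that makes oleic acid from stearic acid, is not in this list but in the lipid handling list described next. It showed the largest fall of any named gene measured on both sides: −1.73, −1.13 and −2.17 on IRI liver against 4.26 in culture, 61.0-fold lower (adjusted p = 3.6e-05). Tm7sf2, a sterol reductase also outside the cholesterol list, had 0.73, 0.96 and 0.73 on IRI liver against 5.53 in culture, a difference of −4.73 ± 0.25 (SE, adjusted p = 8.5e-06). In both genes the IRI values lay within about a log2 unit of each other and far below the culture value. Msmo1, a sterol methyl oxidase, had 4.93, 5.35 and 4.71 on IRI liver against 8.33 in culture, and Lss, which closes the sterol rings, differed by −3.28 ± 0.37. Sc5d (−3.14 ± 0.31) and Dhcr7 (−2.77 ± 0.24), which act in the last steps to cholesterol, fell as well. Srebf2, which encodes a transcription factor of the pathway, stood at −0.63 ± 0.53 and did not pass the test (adjusted p = 0.39). Its other kept probe was lower, at −6.10, −4.65 and −5.10 on IRI liver against −3.20 in culture. That probe was not well above background on any IRI array. Some other genes of fatty acid synthesis, also taken from the lipid handling list, fell too. Elovl6, an elongase, fell by 3.23 on the log2 scale, Scd2 by 2.84 and Fasn, the fatty acid synthase, by 2.41. These levels on IRI liver did not differ from non-IRI liver for any of the 22 cholesterol genes at adjusted p under 0.05, where 2.42% of all genes did.

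Of 25 lipid handling genes, 8 were higher, 8 were lower and 9 did not pass the test, with a median of −0.20. Cd36, a scavenger receptor for lipoproteins and fatty acids, had 1.24, 1.89 and 2.00 on IRI liver and was not well above background in culture (−6.40), at least 71.6-fold higher (adjusted p = 4.7e-06). Abcg1, a cholesterol exporter, had 4.92, 4.37 and 5.04 on IRI liver against −3.18 in culture. Apoe, which carries lipid out of cells, had 9.17, 8.58 and 8.62 against 2.43, and Apoc1 rose by 5.17 ± 0.60. Macrophage marker genes rose on the same arrays, as given below, and their part in these rises was not tested.

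The Atf4 target list also fell. Of 28 genes tested, 22 were lower and 0 higher, with a median of −1.93 (−1.88 with dim values at their bound). On non-IRI liver the median against culture was −2.29. Between the livers 0 of the 28 differed, where 2.42% of all genes did. Phgdh and Psph, the first and last enzymes of serine synthesis, had 3.49, 3.98 and 3.34 on IRI liver against 7.38 in culture, and −0.73, −0.41 and −0.55 against 2.24. Asns, asparagine synthetase, had 1.70, 3.15 and 2.09 on IRI liver against 5.79 in culture (−3.48 ± 0.51, adjusted p = 0.002). Atf4 itself fell by 1.23 ± 0.22 (SE, adjusted p = 0.0053). Aars1, which charges alanine tRNA, fell by 2.33 ± 0.33 and Chac1, which cleaves glutathione, by 3.71 ± 0.77. Slc7a11, the cystine importer, was not well above background on any IRI array and at least 1.13-fold lower. Cebpb was the single member above 0, at 0.12 ± 0.32 (adjusted p = 0.79), and it turned to −0.18 with median scaling and to −0.08 without IRI replicate 2.

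Promoters of 3 members called lower are shown because the transcription factors of these programs have known sites, which can be looked up. The 250 bases before the annotated start were taken from the RefSeq promoter table (GRCr8) and searched on both strands for TGATGNAA, the core shared by response elements for C/EBP and Atf4. It was present in 4 of 25 Atf4 list promoters (Aars1, Chac1, Nupr1 and Pck2), against 899 of 27457 promoters in all (3.27%). The CArG box, the site of serum response factor, was present in 2 of 16 contractile list promoters and in 3 of 16 immediate early promoters, against 412 of all promoters. TCACNCCAC, the sterol regulatory element, was present in 0 of 14 promoters of the cholesterol list and in 0.976% of all. A match is a description of these letters and no evidence of binding. Aars1 is on the plus strand at chr19:55908232-55908481, Acta1 on the minus strand at chr19:68784195-68784444, and Srf, the gene of serum response factor itself, on the plus strand at chr9:21923826-21924075, with matches in capitals (1 in Aars1, starting 112 bases before the start, 1 in Acta1 at 94 bases, and 2 in Srf, the first at 81 bases).
Aars1: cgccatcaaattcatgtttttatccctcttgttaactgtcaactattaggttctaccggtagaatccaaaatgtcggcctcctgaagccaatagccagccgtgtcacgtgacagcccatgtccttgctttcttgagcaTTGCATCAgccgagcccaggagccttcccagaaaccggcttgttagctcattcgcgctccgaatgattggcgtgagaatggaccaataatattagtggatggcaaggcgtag
Acta1: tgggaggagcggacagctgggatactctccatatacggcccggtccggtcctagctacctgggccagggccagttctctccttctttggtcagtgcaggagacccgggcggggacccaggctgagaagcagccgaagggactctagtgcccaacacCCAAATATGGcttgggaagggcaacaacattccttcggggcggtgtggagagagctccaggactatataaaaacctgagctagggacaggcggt
Srf: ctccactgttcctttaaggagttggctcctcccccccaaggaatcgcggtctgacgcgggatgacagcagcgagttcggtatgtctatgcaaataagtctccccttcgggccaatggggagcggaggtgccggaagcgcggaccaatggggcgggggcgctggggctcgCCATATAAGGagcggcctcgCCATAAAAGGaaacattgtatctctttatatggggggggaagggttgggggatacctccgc

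Of 21 contractile genes tested, 18 were lower on IRI liver and 1 higher (median −1.62), with 11 lower under quantile normalization and 13 without IRI replicate 3. The median on non-IRI liver against culture was −1.80, and 0 of the 21 differed between the livers (2.42% of all genes did). Acta1, an actin of striated muscle, had −5.93, −5.52 and −5.28 on IRI liver, none well above background, against −0.96 in culture, and was at least 11.3-fold lower (adjusted p = 0.00026). Myocd, the gene of myocardin, was likewise dim on IRI liver and at least 13.6-fold lower. Myh11, the smooth muscle myosin, had −0.89, −0.04 and −0.21 on IRI liver against 3.03 in culture. Myl9, a myosin light chain, fell by 2.42 ± 0.42, Lmod1, which nucleates actin, by 2.34 ± 0.30, Tpm2, a tropomyosin, by 1.55 ± 0.22, and Srf by 0.99 ± 0.28. The Srf call was lost without IRI replicate 2 (adjusted p = 0.060), without replicate 3 (0.080) and with quantile normalization (0.13). Des, the muscle intermediate filament desmin, went the other way at 3.57, 4.06 and 3.69 on IRI liver against −1.82 in culture, 48.3-fold higher (adjusted p = 6.3e-05). Desmin is also a marker of the liver's own stellate cells in rats, whose part in this value was not tested.

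Of 28 markers of mesenchymal stromal cells, 27 were on the array and 23 passed the filter on dim probes, and these 23 were well above background in culture and on all 3 IRI arrays. Their summed level was 3334, 2395 and 2448 on IRI liver and 3635 in culture, in units of the array's 75th percentile, and the median difference was −0.40, near that of all genes. Of the 23, 6 were lower and 1 higher, without IRI replicate 3 the counts were 2 and 0, and with quantile normalization 3 and 2. Thy1 (CD90) had −1.60, −1.36 and −1.78 on IRI liver against 0.55 in culture (−2.12 ± 0.44, adjusted p = 0.0098). Itgb1, the beta-1 integrin chain, had 5.11, 5.46 and 5.23 against 6.69 (−1.42 ± 0.26, adjusted p = 0.0057). Vim, vimentin, fell by 1.03 ± 0.28 (adjusted p = 0.028), and S100a4, a calcium-binding protein of fibroblasts, by 1.33 ± 0.33 (adjusted p = 0.020). Both missed the threshold without IRI replicate 3 (adjusted p = 0.069 and 0.056). Eng (CD105), which endothelial cells also make, rose by 2.43 ± 0.69, with adjusted p = 0.070 without IRI replicate 2 and 0.067 without replicate 3. Cd44 stood at 0.78 ± 0.30 (adjusted p = 0.088), with its 2 probes differing in sign, Postn at 1.58 ± 0.65 (adjusted p = 0.10) and Lum at 1.38 ± 0.65 (adjusted p = 0.14). Fitted on the 3 IRI arrays and the culture array alone, Postn and Lum passed the threshold, while Eng and S100a4 missed it.

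Matrix genes moved in both directions around a median near that of all genes. Of 23 collagen genes 2 were higher and 6 lower, and of 30 matrix glycoprotein genes 4 were higher and 6 lower. Their medians, −0.14 and −0.16, turned positive with quantile normalization, at 0.32 and 0.14. Col8a1, a short-chain collagen, had 1.72, 1.99 and 1.95 on IRI liver against 4.70 in culture, whereas Col7a1, the anchoring fibril collagen, had −0.14, 0.28 and −0.25 against −2.36. Col5a3 rose by 2.14 ± 0.47, and the collagen-modifying enzymes Loxl3 (−2.29 ± 0.34) and Plod3 (−1.32 ± 0.26) fell. Pcolce, which aids procollagen cleavage, fell by 1.09 ± 0.27, with adjusted p = 0.057 without IRI replicate 3. Without that replicate 3 collagen genes were lower, and 4 were higher without replicate 1. Ltbp2, which binds fibrillin, had 0.21, −0.03 and −0.14 on IRI liver against 2.56 in culture (adjusted p = 0.00017). Thbs1, thrombospondin-1, fell by 2.85 ± 0.54, Fbln5 by 2.04 ± 0.37 and Lamc1 by 1.54 ± 0.30. Tgfbi rose by 1.73 ± 0.25 and Emilin1 by 1.67 ± 0.30. Fmod, fibromodulin, rose by 2.55 ± 0.69, but had an adjusted p of 0.052 without IRI replicate 1, when 2 glycoprotein genes were higher.

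Of 14 integrin genes 6 were higher and 2 lower. The 6 are chains known from leukocytes, led by Itgb2, the shared beta chain of leukocyte integrins, at 4.01, 4.21 and 4.39 on IRI liver and not above background in culture (at least 403-fold higher). The 2 lower genes were Itgb1 and Itga8, a chain of fibroblasts and smooth muscle, at −1.51 ± 0.27. The integrin median, 0.09, was −0.22 with median scaling. Among the 8 integrin genes well above background on all 4 arrays, 1 was higher and 2 lower. Of 25 metalloproteases and inhibitors 7 were higher and 2 lower, and 4 were higher without IRI replicate 2 or without replicate 3. Median scaling turned the balance to 4 higher and 5 lower. Among the 20 well above background on all 4 arrays, 4 were higher and 2 lower (median −0.28). Mmp9, a gelatinase of neutrophils and macrophages, was at least 46.9-fold higher and Mmp12, the macrophage elastase, at least 39.7-fold higher. Mmp23 was 2.14-fold lower (adjusted p = 0.033), a call lost without IRI replicate 2 (adjusted p = 0.077) or replicate 3 (0.083). Without IRI replicate 3, 0 of the list were lower.

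**Figure D2:**
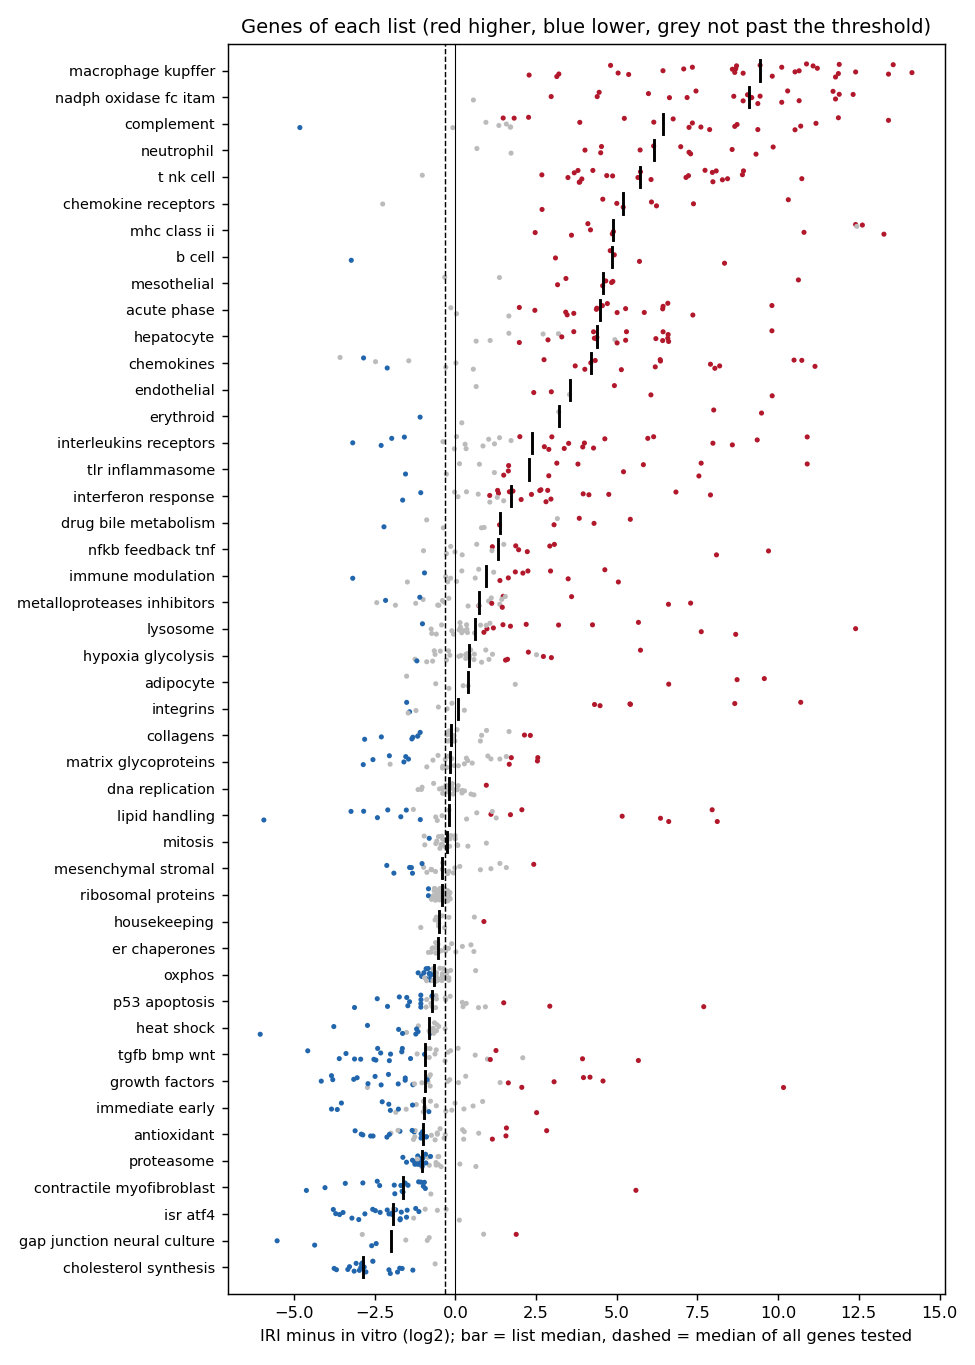
Difference of every tested gene in each of 46 gene lists (log2, IRI minus in vitro), 1 point per gene, with a bar at the list's median and the lists in the order of their medians. Macrophage genes (median 9.44) lie at the top and cholesterol synthesis genes (median −2.85) at the bottom, with the dashed line at the median of all genes (−0.33).

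Of 34 growth factor genes 7 were higher and 14 lower (median −0.95, or −0.86 with dim values at their bound), and 9 were lower without IRI replicate 3. Ccn2, connective tissue growth factor, had 5.46, 5.83 and 5.10 on IRI liver against 8.50 in culture (−3.04 ± 0.37, adjusted p = 0.00077). Fgf2 had −1.21, −0.88 and −1.19 against 0.98, Fgf18 fell by 2.71 ± 0.35, and Csf1, the macrophage growth factor, by 2.30 ± 0.25. Among those that rose, Angptl4, an inhibitor of lipoprotein lipase, had 3.34, 4.53 and 4.68 on IRI liver and was not above background in culture (at least 399-fold higher, adjusted p = 8.0e-06). Igf1 had 7.33, 6.34 and 6.64 on IRI liver against 2.80 in culture (adjusted p = 0.00020), Igf2 rose by 2.06 ± 0.26, and Hgf, hepatocyte growth factor, by 1.64 ± 0.35 (adjusted p = 0.011).

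Of 33 genes of transforming growth factor beta, bone morphogenetic protein (BMP) and Wnt signalling, 4 were higher and 15 lower (median −0.95). Id4, an inhibitor of helix-loop-helix factors, fell by 2.93 ± 0.32, Tgfb3 by 2.41 ± 0.39 and Bmp3 by 2.46 ± 0.43. Sfrp2, a secreted Wnt modulator of stromal cells, had 4.19, 2.87 and 3.36 on IRI liver against −2.20 in culture, 50.9-fold higher (adjusted p = 0.00017), and Sfrp4 rose by 3.94 ± 0.82 (adjusted p = 0.0096). Immediate early genes followed the falls, with 9 of 25 lower and 1 higher (median −0.99). Fos had 0.67, 0.52 and 0.23 on IRI liver against 4.31 in culture, Klf4 fell by 2.27 ± 0.32, Myc by 2.06 ± 0.32, Nr4a1 by 3.66 ± 0.65 and Dusp1, a phosphatase that acts on MAP kinases, by 3.53 ± 0.63. Dusp2, a related phosphatase of leukocytes, rose at least 4.63-fold, with adjusted p = 0.053 without IRI replicate 3, when 0 of the list were higher.

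Several of the largest measured falls were secreted or surface proteins of no single pathway. F3, tissue factor, which starts coagulation, had 3.66, 3.34 and 3.45 on IRI liver against 7.94 in culture, a difference of −4.46 ± 0.43 (adjusted p = 0.00022). Edn1, endothelin-1, had −3.09, −2.45 and −2.66 against 2.70, and Esm1, a secreted proteoglycan, had 0.85, 0.85 and −0.01 against 5.61. Cd55, which shields cells from complement, had −1.96, −2.29 and −2.07 on IRI liver against 2.71 in culture (28.2-fold lower, adjusted p = 0.00090), the single fall among 26 complement genes. Mme, the surface peptidase neprilysin (CD10), fell by 4.61 ± 0.71, Fez1, an adaptor of axonal transport, by 4.29 ± 0.49 and Sncg, a synuclein, by 4.50 ± 1.06. C3h11orf96 fell by 4.94 ± 0.42 on the probe used, while its other probes gave −4.87 and −1.09. Ccn5, a matrix protein of the CCN family, was spread widely on IRI liver (3.36, 0.31 and 1.73, against 6.37 in culture, adjusted p = 0.026) and missed the threshold without replicate 3 (adjusted p = 0.060). Gja5, connexin 40, fell by 4.87 ± 1.54 (adjusted p = 0.045) and missed it without any of the IRI replicates (adjusted p between 0.058 and 0.10).

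Genes measured in culture and not well above background on IRI liver include 2 olfactory receptors, Or4n5 and Or1o2, of which Or1o2 was at least 4.98-fold lower. Or4n5 had −6.31, −6.89 and −5.93 on IRI liver against −0.46 in culture. Others were Adamtsl3, a matrix protein (at least 6.97-fold lower), Myh2, a muscle myosin (6.74), Dcdc2, a microtubule-binding protein (5.58), Ntsr2, a neurotensin receptor (3.94), Aqp6, an aquaporin (2.63), and Igll1, the surrogate light chain of early B cells (1.89), each a lower bound of the fold. Of 10 genes in a list of gap junction and neural genes, 4 were lower and 1 higher. Nefm, a neurofilament, was at least 7.87-fold lower, and Nes, nestin, an intermediate filament of progenitor cells, rose by 1.89 ± 0.40.

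**Figure D3:**
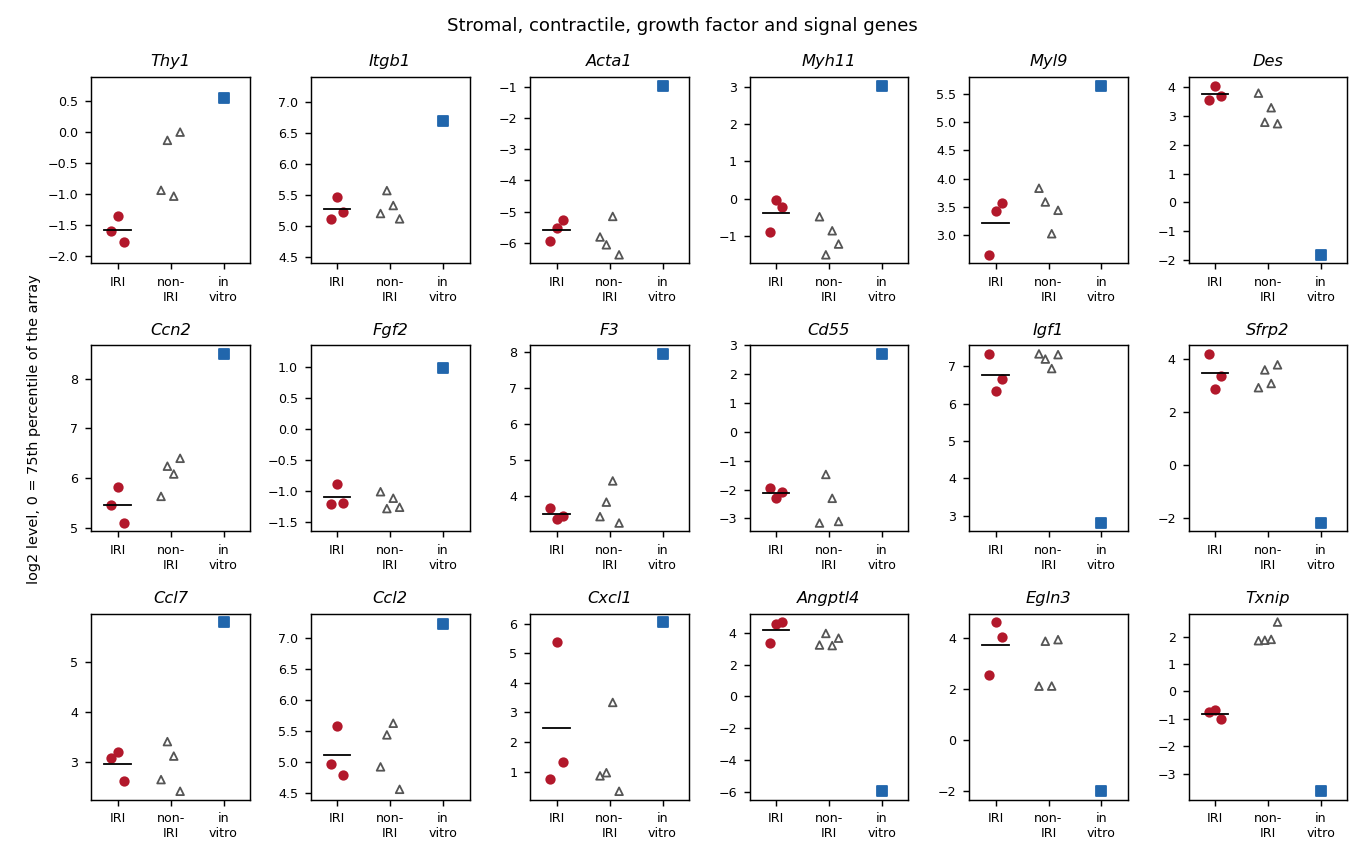
Log2 level of 18 stromal, contractile and signal genes on each array (0 is the array's 75th percentile), with 3 IRI arrays and their mean as a bar, 4 non-IRI arrays and 1 culture array. The IRI values of Acta1 (−5.93 to −5.28) lie below the culture value of −0.96, those of Des (3.57 to 4.06) above −1.82, and those of Cxcl1 range from 0.76 to 5.37 below 6.06.

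Of 21 heat shock genes 9 were lower and 0 higher (median −0.81), led by small heat shock proteins. The median on non-IRI liver against culture was −0.94, and 0 of the 21 differed between the livers (2.42% of all genes did). Cryab had 4.74, 4.49 and 4.69 on IRI liver against 8.41 in culture, and Hspb1 had 3.34, 3.34 and 3.31 against 6.05 (adjusted p = 7.1e-05 and 0.00017). Hspb7 was not well above background on IRI liver and at least 36.4-fold lower, and Hspb6 fell by 1.76 ± 0.29. Of 35 antioxidant genes 15 were lower and 4 higher (median −1.02). Nqo1, a quinone reductase, had −3.63, −3.10 and −2.81 on IRI liver against −0.08 in culture. Prdx6, a peroxiredoxin, fell by 2.04 ± 0.21 and Gss, glutathione synthetase, by 1.72 ± 0.26, whereas Gpx1, a glutathione peroxidase, rose by 1.57 ± 0.35. Without IRI replicate 3, or with median scaling, 2 antioxidant genes were higher. Gsta2, a glutathione transferase, fell by 2.87 ± 0.40 on 1 probe and stood at 0.92 on another, and the mean of its probes gave an adjusted p of 0.29. Of 31 genes of p53 and apoptosis 12 were lower and 3 higher, and 5 were lower without IRI replicate 3. Phlda3, a p53 target, fell by 2.42 ± 0.23, Bax by 1.74 ± 0.25 and Gadd45a by 3.12 ± 0.63, while Bcl2a1, a survival gene of leukocytes, was at least 47.0-fold higher.

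**Figure D4:**
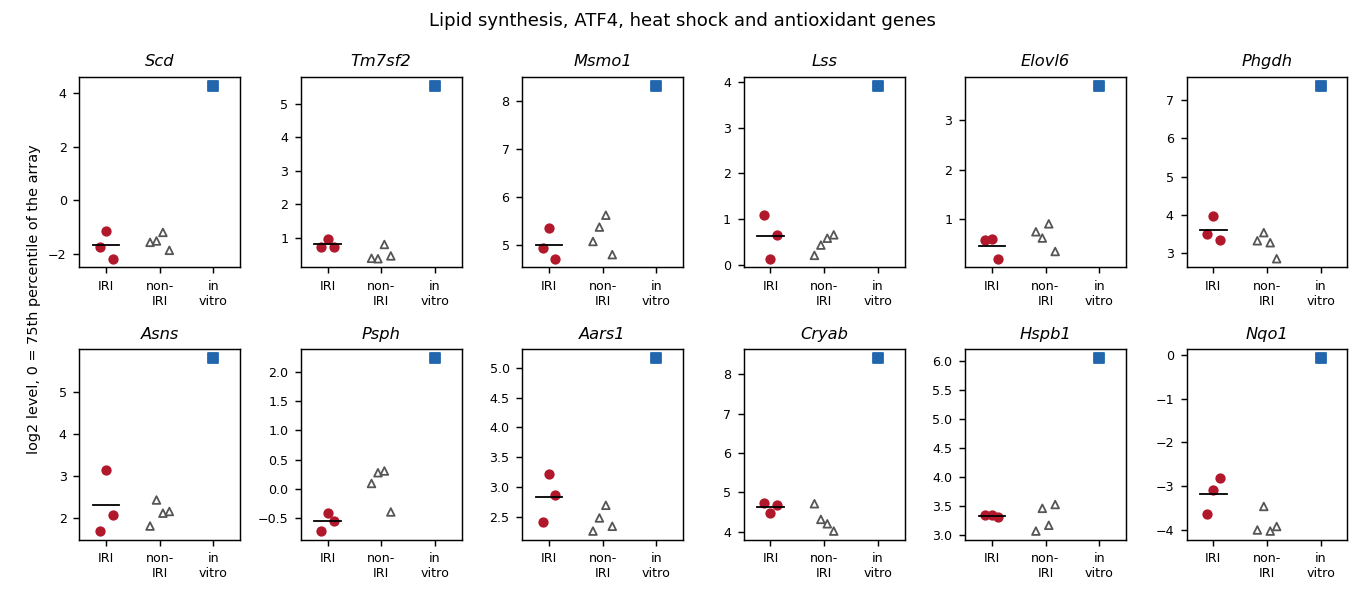
Log2 level of 12 lipid synthesis, Atf4 target, heat shock and antioxidant genes on each array (0 is the array's 75th percentile), with 3 IRI arrays and their mean as a bar, 4 non-IRI arrays and 1 culture array. The IRI values lie below the culture value in each panel, for example −2.17 to −1.13 against 4.26 for Scd.

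Housekeeping machinery showed smaller shifts that depended on scaling or on single arrays. Of 33 proteasome genes 20 were lower and 0 higher (median −1.02), with Psmb5 at −1.51 ± 0.26 and Psmc1 at −1.24 ± 0.22. The count was 11 without IRI replicate 3 and 7 with quantile normalization, where the median was −0.58. Of 43 genes of oxidative phosphorylation 15 were lower and 0 higher (median −0.67), with Ndufs3, a subunit of complex I, at −1.03 ± 0.25. That count was 2 without IRI replicate 2 or without replicate 3, 26 with median scaling and 1 with quantile normalization, which put the list's median at −0.24 against −0.26 over all genes. Of 59 ribosomal protein genes 2 were lower, Rpl10a (−0.83 ± 0.25) and Rps10 (−0.83 ± 0.26), with counts of 10, 0 and 0 when IRI replicates 1, 2 and 3 were left out in turn, and of 17 with median scaling. None of 20 endoplasmic reticulum chaperone genes passed, and their median was −0.53. Median scaling gave 8 lower and a median of −0.83, and quantile normalization 0 lower and a median of −0.14. Cell cycle genes stayed near the median of all genes. Of 28 DNA replication genes 1 was higher, Cdc6 at 0.96 ± 0.24, and of 26 mitosis genes 1 was lower, Bub3 at −0.81 ± 0.25. Cdc6 missed the threshold without IRI replicate 3 (adjusted p = 0.061) and Bub3 without any of them (0.071 to 0.082). Among housekeeping genes Gusb rose by 0.89 ± 0.22, a call lost without IRI replicate 3.

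Of 31 genes of hypoxia and glycolysis 6 were higher (19.4%, near the 14.1% of all genes) and 1 lower. Their median was 0.43, but 0.14 without IRI replicate 2 and 0.13 with median scaling, which gave 6 higher and 4 lower. Egln3, an oxygen-sensing hydroxylase that low oxygen induces, had 2.55, 4.63 and 4.04 on IRI liver against −2.00 in culture, 53.3-fold higher (adjusted p = 0.0041). Ankrd37 rose by 2.98 ± 0.71, Ndrg1 by 2.73 ± 0.64 and Slc16a3, a lactate exporter, by 1.62 ± 0.25, while Hk1, a hexokinase, fell by 1.19 ± 0.25. In Egln3, Ndrg1 and Ankrd37 IRI replicate 1 was the lowest of the 3. These genes rose without a difference between IRI and non-IRI liver that passed the test (adjusted p from 0.53 to 0.80 for the 4 named).

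Genes known from macrophages rose. Of 29 macrophage genes tested (31 named), all 29 were higher and 0 lower, with a median of 9.44, or 8.69 with the dim culture values at their bound. Their summed level was 2673, 2216 and 2583 on IRI liver, 1941 to 3006 on non-IRI liver and 31.0 in culture, where 9 of the 29 were well above background. Lyz2, a lysozyme of myeloid cells, had 8.80, 8.31 and 8.53 on IRI liver against −5.60 in culture, at least 8183-fold higher (adjusted p = 4.7e-07). Aif1, an actin-binding protein of macrophages, was at least 3421-fold higher, C1qa, a chain of complement C1q, at least 4151-fold, and Ctss, cathepsin S, at least 1889-fold. Cd68, a lysosomal protein of macrophages, had 6.99, 6.80 and 7.01 on IRI liver against −1.75 in culture. Among the largest rises measured on both sides were Tyrobp, an adaptor of activating receptors, at 7.92, 7.64 and 7.78 against −4.11, Trem2, its lipid-sensing partner, at 6.97, 6.36 and 6.50 against −4.04, and C1qb at 8.08, 7.75 and 7.95 against −2.59. Laptm5, a lysosomal protein of blood cells, rose by 11.08 ± 0.44, Folr2, a folate receptor of resident macrophages, by 9.05 ± 0.45, and Adap2 by 9.39 ± 0.46.

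Receptor signalling and antigen presentation genes of these cells rose as well. Of 22 genes of the NADPH oxidase and of Fc and ITAM receptors, 21 were higher and 0 lower, and 14 were not well above background in culture. Fcer1g, the shared Fc receptor gamma chain, had 6.06, 6.30 and 6.59 on IRI liver against −3.12 in culture, and Fcgr2b, the inhibitory Fc receptor, rose by 8.92 ± 0.57. Fcgr1a was at least 3204-fold higher and Ncf4, an oxidase subunit, at least 1039-fold. Of 11 MHC class II genes 10 were higher and 0 lower, with summed levels of 1025, 716 and 761 on IRI liver against 4.57 in culture. In culture 9 of the 11 were not well above background. Cd74, the invariant chain, had 8.55, 7.84 and 7.85 on IRI liver and was not above background in culture (at least 5917-fold higher), RT1-Da was at least 4210-fold higher and RT1-Db1 rose by 10.80 ± 0.45. Of 26 complement genes 19 were higher, among them C1qc (at least 957-fold) and C5ar1, the C5a receptor (at least 555-fold). In culture 12 of the 26 were not well above background. Slamf9, a leukocyte surface receptor (at least 995-fold), Klra5, a lectin-like receptor (275), Hhex, a homeobox factor (143), and Ptpro, a receptor phosphatase (142), were also bright on IRI liver and dim in culture. Of 31 lysosome genes 12 were higher, among them Ctss, Cd68 and Ctsc at 5.67 ± 0.28, and 1 was lower, Gaa, at −1.02 ± 0.31, a call lost when any IRI replicate was left out.

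Markers of neutrophils and lymphocytes rose on the same arrays. Of 13 neutrophil genes 11 were higher and 0 lower, with summed levels of 215, 305 and 299 on IRI liver, 68.5 to 363 on non-IRI liver and 2.77 in culture. However, 10 of the 13 were not well above background in culture and were kept for being bright on IRI liver. Among the 3 neutrophil genes well above background on all 4 arrays, 1 was higher. Slpi, a protease inhibitor, had 7.63, 8.08 and 8.05 on IRI liver against −1.92 in culture, although epithelia make it too. S100a9 and S100a8, which together form calprotectin, were at least 162-fold and at least 83.2-fold higher, Trem1 at least 38.4-fold and Padi4, which citrullinates histones, at least 13.3-fold. Of 25 T and NK cell genes 24 were higher, with summed levels of 76.6, 58.3 and 81.7 against 1.67 in culture. In culture 20 of the 25 were not well above background, and among the 5 bright on all 4 arrays 4 were higher. Ccl5 was at least 357-fold higher, Prf1, perforin, at least 116-fold, Nkg7 at least 70.6-fold and Klrd1, the CD94 receptor, at least 53.3-fold. Gzmb, granzyme B, was the exception at −1.02 ± 0.53 (adjusted p = 0.17). Of 6 B cell genes 5 were higher, with Blnk, an adaptor of B cell and macrophage signalling, at 5.70 ± 0.39 and Cd22 at least 79.4-fold higher, and 1 was lower, Igll1. In culture 4 of the 6 were not well above background.

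**Figure D5:**
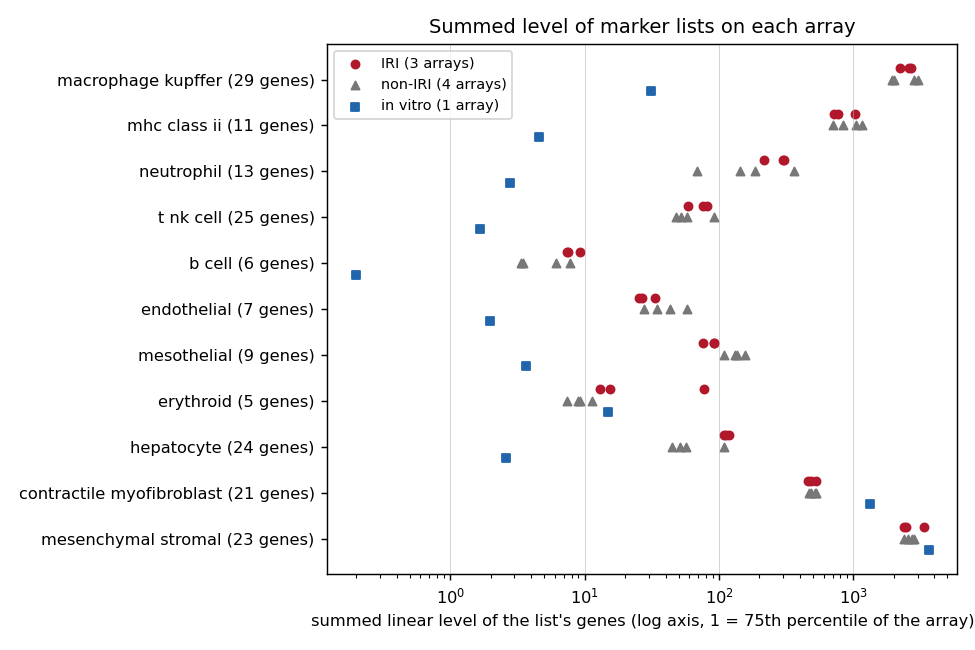
Summed linear level of marker lists on each array (log axis, 1 is the array's 75th percentile), with 3 IRI, 4 non-IRI and 1 culture array. Macrophage genes sum to 2216 to 2673 on IRI liver against 31.0 in culture, while stromal genes sum to 2395 to 3334 against 3635. The erythroid sum, which includes Tfrc, is 15.3, 78.0 and 13.0 on IRI liver against 14.8 in culture.

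Markers of vessels, surface epithelium, fat and red cells differed in how evenly the IRI arrays carried them. Of 7 endothelial genes 5 were higher, with Lyve1, a hyaluronan receptor of sinusoids and lymphatics, at least 240-fold, Esam at least 46.6-fold and Kdr, a receptor of vascular endothelial growth factor, at 2.97 ± 0.54. Of 9 mesothelial genes 7 were higher. Msln, mesothelin, had 5.84, 5.39 and 5.46 on IRI liver against 0.90 in culture, Upk1b rose by 4.56 ± 0.39 and Wt1 by 3.43 ± 0.37, and Krt18, a keratin of simple epithelia and hepatocytes, was at least 370-fold higher. Their summed level was 91.8, 91.2 and 76.1 on IRI liver, 109 to 156 on non-IRI liver and 3.64 in culture. Of 9 adipocyte genes 3 were higher: Cfd, adipsin, at 8.73 ± 0.49, Retn, resistin, at least 209-fold, and Fabp4, a fatty acid carrier of fat cells and macrophages, at least 67.4-fold. Erythroid genes summed to 15.3, 78.0 and 13.0 on IRI liver and 14.8 in culture, where the sum includes Tfrc at a log2 level of 3.83. The mean log2 level of the list was 0.70, 2.87 and 0.23 on IRI liver against −2.69 in culture. Alas2, which makes heme in red cell precursors, was highest on IRI replicate 2 (5.16) and was at least 180-fold higher than in culture, and Hbb was at least 59.3-fold higher. Ahsp, a globin chaperone, had 1.33, 4.56 and 0.14 on IRI liver against −1.19 in culture (adjusted p = 0.11, or 0.039 without replicate 2 and 0.041 without replicate 3). Hba-a3, an alpha globin, had 8.87, 9.66 and 8.06 on IRI liver against −3.51 in culture, the largest rise of a named gene measured on both sides. Tfrc, the transferrin receptor, fell by 1.09 ± 0.30, a call lost without replicate 1 or without replicate 2.

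Liver proteins were among the genes that rose. Of 24 hepatocyte genes 18 were higher and 0 lower (median 4.38, 3.99 with dim values at their bound, or 1.93 with normexp correction), with summed levels of 112, 120 and 110 on IRI liver, 44.4 to 108 on non-IRI liver and 2.60 in culture. In culture 12 of the 24 were not well above background. Alb, albumin, had 4.20, 4.10 and 3.27 on IRI liver against −2.58 in culture (86.6-fold higher, adjusted p = 0.0011). Tf, transferrin, had 5.88, 5.80 and 5.98 against −3.92, and Hp, haptoglobin, 2.86, 3.84 and 3.65 against −0.93. Of 20 acute phase genes 17 were higher and 0 lower. Lcn2, lipocalin-2, which binds bacterial siderophores and is made by hepatocytes and neutrophils, had 3.52, 2.64 and 3.40 on IRI liver and was not above background in culture (at least 164-fold higher, adjusted p = 7.1e-06). A2m, alpha-2-macroglobulin, rose by 5.85 ± 0.41, Itih3 at least 22.9-fold and Cp, ceruloplasmin, at least 7.92-fold. Of 11 genes of drug and bile metabolism tested, of 31 named, 5 were higher, with Adh1c at least 11.2-fold, Cyp2c6v1 at least 4.99-fold and Sult2a6 at least 4.72-fold. Between IRI and non-IRI liver 16 of the 24 hepatocyte genes and 12 of the 20 acute phase genes differed, against 2.42% of all genes, and these groups lie on different slides, so slide and injury cannot be told apart there.

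Of 23 chemokine genes tested, 15 were higher and 2 lower, but 12 of the 23 were not well above background in culture. Among the 10 well above background on all 4 arrays, 3 were higher and 2 lower (median −0.14). The 2 lower genes were Ccl7, at 3.07, 3.20 and 2.61 on IRI liver against 5.80 in culture (−2.84 ± 0.42, adjusted p = 0.0019), and Ccl2, at 4.97, 5.57 and 4.79 against 7.22 (−2.11 ± 0.46, adjusted p = 0.012), both of which draw monocytes. Cxcl1, which draws neutrophils, had 0.76, 5.37 and 1.34 on IRI liver against 6.06 in culture, with replicate 2 near the culture value (adjusted p = 0.15, or 0.019 without replicate 2). Pf4, a platelet and macrophage chemokine, was at least 795-fold higher, Xcl1 at least 74.2-fold and Cxcl10, which interferon induces, at least 48.8-fold. Of 9 chemokine receptors 8 were higher, with Ccr2, the receptor of Ccl2 and Ccl7, at least 18.2-fold higher. In culture 6 of the 9 were not well above background.

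Of 30 interleukins and receptors 16 were higher and 4 lower, but 13 of the 30 were not well above background in culture. Among the 16 well above background on all 4 arrays, 3 were higher and 3 lower. Il1b had 4.62, 6.19 and 4.74 on IRI liver and was not above background in culture (at least 796-fold higher, adjusted p = 3.5e-05), Il18 was at least 151-fold higher and Csf1r, the receptor of Csf1, at least 293-fold. The 4 lower genes were Csf1, Il6st (−1.58 ± 0.26), the signalling chain of interleukin-6 receptors, Il1rl1 (−1.97 ± 0.36), the receptor of interleukin-33, and Il6, at −5.10, −3.96 and −5.31 on IRI liver against −1.61 in culture (adjusted p = 0.047). On IRI replicates 1 and 3 the Il6 value lay below the lowest signal well above background (−4.08 and −4.63), so the size of its fall is uncertain. Il6 missed the threshold without IRI replicate 1 (adjusted p = 0.089) or replicate 3 (0.11). Of 20 genes of immune modulation 9 were higher and 2 lower. Il10 had −1.79, −0.80 and −0.39 on IRI liver and was not above background in culture. Nos2, the inducible nitric oxide synthase, had −2.68, −0.13 and −1.72 on IRI liver and was at least 7.70-fold higher, and Cd200r1, an inhibitory receptor of myeloid cells, rose by 2.25 ± 0.25. Lgals1, galectin-1, fell by 0.96 ± 0.23, with adjusted p = 0.057 without IRI replicate 3, when 0 of the list were lower.

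In the lists of inflammatory signalling given here, more genes were higher than lower, while Ccl2, Ccl7 and Il6, described above, were lower. Of 16 genes of the tumour necrosis factor and NF-kB feedback list 8 were higher and 0 lower (median 1.32, or 1.20 with dim values at their bound). The other 8 did not pass the test, and 4 of the 16 lay below 0. Tnfrsf1b, a receptor of tumour necrosis factor, had 4.43, 4.62 and 4.57 on IRI liver against 2.67 in culture, and Birc3, which blocks apoptosis downstream of it, rose by 2.93 ± 0.39. Ltb was at least 272-fold higher and Cd83 at least 176-fold on the probe used, while its other probe was much dimmer on IRI liver (−3.28, −3.11 and −3.57) and also not well above background in culture. Of 26 interferon response genes 17 were higher and 2 lower (median 1.73, or 1.59 with dim values at their bound). Bst2, tetherin, had 5.44, 4.73 and 4.93 on IRI liver against 0.28 in culture and Ifi47 rose by 4.14 ± 0.38, while Ifit2 fell by 1.63 ± 0.35 and Ifi27 by 1.07 ± 0.32. The Ifi27 call was lost with any IRI replicate left out (adjusted p from 0.060 to 0.080). Of 16 Toll-like receptor and inflammasome genes 11 were higher, with Tlr1 at least 42.0-fold, and 1 was lower, Casp4, an inflammatory caspase, at −1.54 ± 0.32.

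Txnip, which binds thioredoxin and limits glucose uptake, was intermediate on IRI liver. It had −0.75, −0.67 and −1.02 on IRI liver, 1.85, 1.86, 1.89 and 2.53 on non-IRI liver and −3.64 in culture. The 3 groups did not overlap, the rise over culture was 2.83 ± 0.32 (adjusted p = 0.00054), and the IRI level was 2.85 below the non-IRI level (adjusted p = 0.0016), a difference in which slide and injury cannot be told apart. Of the 6160 genes called against culture, 150 (2.44%) also differed between IRI and non-IRI liver, a share close to the 2.42% of all genes.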

How the data were processed

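Each sample was hybridised to 1 single-colour Agilent rat array, and the authors deposited the scanner output with intensity per spot, made with Agilent Feature Extraction 11.0.1.1 per the file headers and 9.1 per the submitters' processing notes. Their value table of log2 values, deposited beside it, is centred on each probe and served as an alternative, with column medians of 0.177, −0.0664 and −0.0503 on IRI and 0.163 in culture; its unit scale and centring were found by setting it against the scanner values. Processed intensities, already corrected for background by the scanner software, were converted to log2 and the 75th percentile of each array's non-control spots was subtracted. Control spots and outlier flags were left out. A probe was kept if well above background on all 3 IRI arrays or in culture (23445 of 41012 probes; 17538 have a gene symbol and 23474 have none), and each gene took its brightest kept probe. Kept probes of 1 gene differed in sign in 480 of 2760 genes with several. Among named genes they differed by over 2 on the log2 scale, with the same sign, in Adamtsl3, C1qc, C3h11orf96, Cd22, Cd83, Krt18, Lyve1 and Ptpro.

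Group means of all 8 arrays were fitted in limma 3.58.1 (R 4.3.3), with Benjamini-Hochberg adjustment over 20137 genes and a threshold of 0.05; 5 residual degrees of freedom come from the liver arrays alone. The number of arrays limits the precision. In 11 genes an IRI value was missing and dropped, and 8 genes without a culture value were left out. The test was tried on simulated data. The 46 lists, the members and the tests were chosen with earlier results of these data known. Named genes are the 12 largest measured rises and falls, the 8 smallest p-values among genes dim on either side, up to 4 per list and direction, and Actb and Gapdh; Tpm2, Myl9, Srebf2, Asns, Atf4, Chac1, Fos, Hgf, Nos2, S100a9, S100a8, Srf and RT1-Bb were chosen after their values were seen, and genes matching a promoter motif are named for that match. Some genes that this rule takes are not reported here. Normexp correction used the median signal, since no mean signal column was present in the files used. Alternatives covered scaling, background correction, the filter on dim probes, probe choice, arrays fitted, the moderation of variances, a replicate block and each IRI replicate left out. The 4 arrays of IRI and culture share 1 slide.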

Additional observations from a re-analysis of the deposited data

Results flagged for a closer look

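The IRI group of 3 and the single culture array are too small for a test of outlying samples. Among the named genes, 8 were picked out because their difference from culture was not the same on IRI as on non-IRI liver, by limma's test of IRI minus non-IRI with adjustment over all genes; these groups lie on different slides, so slide and injury cannot be told apart, and causes were not tested. Liver proteins were higher on IRI than on non-IRI liver: Alb by 3.21 (adjusted p = 0.025), Itih3 by 2.52 (adjusted p = 0.013) and Lcn2 by 1.75 on the log2 scale (adjusted p = 0.012). Cyp2c6v1, well above background on 2 of 4 non-IRI arrays, differed by 2.76 (adjusted p = 0.037), and Sult2a6, not well above background on any of them, was at least 5.31-fold higher on IRI liver (adjusted p = 0.012). Summed hepatocyte markers were 110 to 120 on IRI and 44.4 to 108 on non-IRI liver. Gsta2 was at least 6.33-fold higher on IRI than on non-IRI liver (adjusted p = 0.0016), where it was not well above background on any array, although both groups were below culture and its probes disagree. Txnip differed by −2.85 (adjusted p = 0.0016). Prph, peripherin, an intermediate filament of peripheral neurons, had −0.35, 0.04 and −0.39 on IRI liver, 3.74, 3.35, 2.41 and 3.15 on non-IRI liver and 2.36 in culture, a difference between the livers of −3.40 (adjusted p = 0.0020), so the fall from culture (−2.59 ± 0.46, adjusted p = 0.0050) was seen on IRI liver, while non-IRI liver stood at 0.80 above culture (adjusted p = 0.20).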

How the results depend on the processing

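Of 205 named genes called against culture, 113 kept direction and side of the threshold in each alternative scored by gene that held them. None changed sign in any of these 15 alternatives. The fit of every kept probe was not scored by gene, and the 2 kept probes of Gsta2 differ in sign. The calls lost ranged from 0 with the authors' value table, with genes that have a symbol, and among the 136 genes bright on each of the 4 arrays, to 90 with normexp correction. Normexp left 497 genes higher and 176 lower. With the 11 probe values of very bright local background replaced, an alternative chosen after seeing the data, 1641 were higher and 2690 lower, and 17 named calls were lost. That alternative left 15 of the T and NK cell genes, 8 of the interleukin genes, 5 of the MHC class II genes and 3 of the growth factor genes higher. Genes bright on all 4 arrays gave 1592 higher, and genes with a symbol 1395, of fewer genes tested (16692 and 9231). Median scaling gave 5947 lower, since the median of all genes moved to −0.63, and no filter on dim probes gave 1960 lower over 36032 genes. With an IRI replicate left out in turn the counts ranged from 2272 to 2701 higher and from 1828 to 3469 lower. IRI and non-IRI arrays share replicate numbers, whose deviations correlated at 0.197, 0.166 and 0.0856, so the numbers are not taken to pair samples, and IRI and culture share a single number; with the replicate block 2538 genes were higher and 1973 lower, and 21 named calls were lost. Cebpb, not called, turned to −0.18 with median scaling, −0.12 with the replicate block and −0.082 without IRI replicate 2, and with a replicate left out in turn it ranged from −0.082 to 0.31. Where not given, the cause of a change was not tested. The differences of dim genes depend on their background, and the single culture array leaves its own spread unmeasured.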

Other observations

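RT1-Bb, a beta chain of MHC class II, had 5.85, 6.22 and 6.08 on IRI liver and was not above background in culture (−6.39), at least 1451-fold higher, yet it did not pass the test (adjusted p = 0.050). It passed with the authors' value table (0.0496), median scaling (0.036), genes with a symbol (0.042), the mean of its probes (0.0026) and the fit of the 3 IRI arrays and the culture array alone (0.00016). On non-IRI liver it stood between 5.59 and 6.42 on 3 arrays and at −5.33 on the other, replicate 3, where Cd74 and RT1-Da were not low (the summed MHC class II level there was 1048, against 699 to 1161 on the other non-IRI arrays). The spread within non-IRI liver enters the fit that all arrays share, and its cause was not tested.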
